A study of Homo sapiens with 48 samples.

Results

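Hemidesmosome genes and 2 chain genes of laminin-332 were followed through a CRISPR screen in which pooled knockouts competed in human squamous carcinoma cells. The 9 genes were picked by name, and all 9 were among the 327 genes of the deposited tables: the integrin subunits ITGA6 and ITGB4, the tetraspanin CD151, the cytoplasmic plakins DST and PLEC, the collagens COL17A1 and COL7A1, and the laminin chains LAMA3 and LAMB3. The labels give 48 samples in 10 groups. All cells stably expressed the Cas9 nuclease and carried the guide library, which was delivered by lentivirus at a multiplicity of infection of 0.3 and selected with puromycin. The later samples used here were 16 tumors of SCC13 (SCC-13, a skin squamous carcinoma line) grown in NOD.Cg-Prkdcscid Il2rgtm1Wjl/SzJ mice, 10 tumors and 2 cultures of CAL27 (a tongue carcinoma line), and 8 tumors and 2 cultures of A431 (A-431, an epidermoid carcinoma line). The CAL27 and A431 tumors grew in SHO mice. Tumors formed from cells mixed with Matrigel, a basement membrane extract that itself contains laminin, injected into the rear flanks and were taken after about 2 months, and cultures were kept for 3 weeks. Each of these 5 sets had 2 initial samples of its own, frozen after selection, as the starting point. Each line is a single established cell line in immunodeficient mice.

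Hemidesmosomes are the rivets that fasten basal epithelial cells to the basement membrane. The alpha-6 beta-4 integrin binds laminin-332 outside the cell, and its long beta-4 tail recruits plectin and the epithelial isoform of dystonin (BP230), which hold the keratin filaments. Collagen XVII strengthens the complex across the membrane, CD151 associates with laminin-binding integrins, and collagen VII anchors the basement membrane to the dermis below. Inherited loss of these proteins causes blistering of skin, and in squamous carcinoma the same receptor and laminin are known for their roles in adhesion and invasion.

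Each value is the authors' log fold change of a gene's guides, minus the value of the median gene in the same tumor or culture. No source used here gives the log base, so all values are called log units and none is turned into a fold. A value above 0 means that cells with that knockout gained share relative to cells with the median knockout, and a value below 0 that they lost share. The deposited values are set to 0 at the non-targeting guides. Against these guides the median gene lay between -2.67 and 0.53 in the SCC13 tumors, between -1.50 and -0.56 in the CAL27 tumors and between -0.55 and -0.07 in the A431 tumors. In SCC13 tumors 26.1% of all values, in 8 to 140 genes per column, are called locked here: at least 4 genes differed between the same 2 columns by exactly the same amount, to 6 decimals. Locked values of a column differ between genes and need not be low in it, and no source used here says how they arose. The SD over genes within a column was 1.89 to 2.87 in SCC13 tumors, 1.09 to 2.23 in CAL27 tumors and 0.42 to 1.34 in A431 tumors. The read depth is unknown. Tests were made with limma over all 327 genes, with Benjamini-Hochberg adjustment at 0.05. Whether tumors came from separate mice, or cultures from separate flasks, is not in the labels, so the p-values reflect spread among these samples alone, and they leave out the error of the initial cells.

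The genes did not move as one group. In tumors, knockouts of ITGB4 and DST gained share in SCC13 and CAL27, and knockouts of CD151 lost share in CAL27 and A431. PLEC fell in SCC13, while LAMA3 fell and LAMB3 rose in CAL27. ITGA6, COL17A1 and COL7A1 passed the test in the tumors of no line. In SCC13 tumors 1 of 9 was lower and 2 were higher, where 23.9% of the library was lower and 23.5% higher. In CAL27 tumors 2 were lower and 3 higher, against 22% and 18.7% of the library. In A431 tumors 1 was lower and 0 were higher, against 11.9% and 7.95% of the library, and at an unadjusted p under 0.05 the members numbered 4 in either direction, where 32.7% of the library did. With 9 genes each call is 11.1%, and these counts lie near the library shares, so they are not read as a result about the group. With the non-targeting guides at 0 in place of the median gene, 6 members were lower and 0 higher in SCC13 tumors, 5 and 2 in CAL27 tumors and 3 and 0 in A431 tumors. The library then split into 220 lower and 13 higher genes in SCC13 (67.3% and 3.98%), 164 and 18 in CAL27 (50.2% and 5.5%), and 73 and 7 in A431 (22.3% and 2.14%), against 78 and 77, 72 and 61, and 39 and 26 relative to the median gene. The median of the 9 values was 0.12 in SCC13 tumors, -0.24 in CAL27 tumors and 0.12 in A431 tumors, beside -0.02, 0.01 and 0.02 over all genes.

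**Figure D1:**
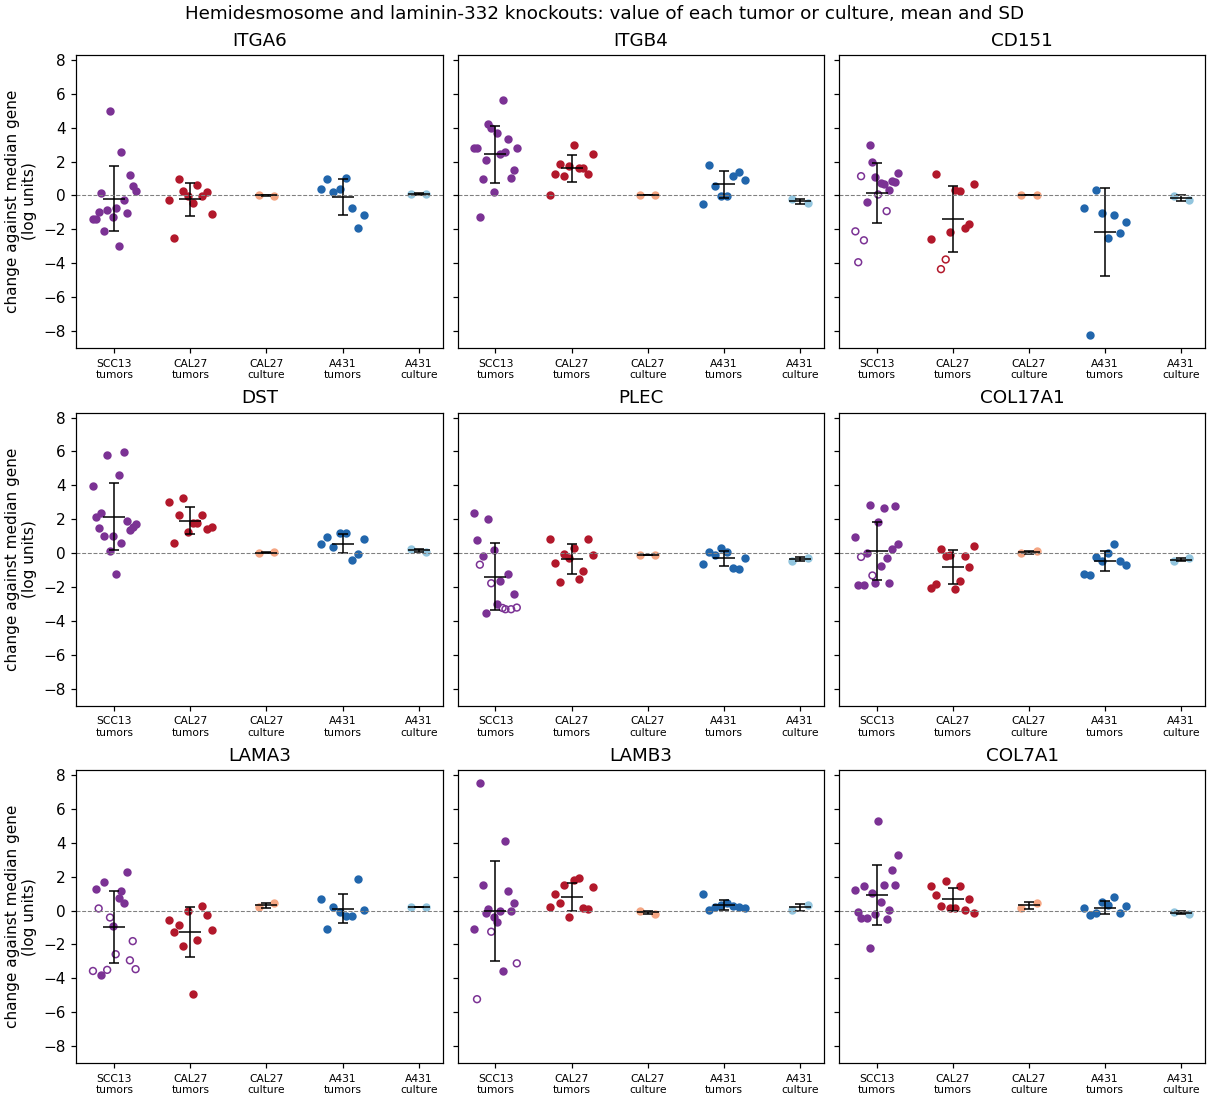
Each point is 1 tumor or culture, placed by group on the horizontal axis and by its change against the median gene (log units) on the vertical axis, with 1 panel per gene and bars for the mean and SD. Open points in the tumors are locked values, whose difference to another tumor is exactly shared with other genes. ITGB4 and DST lie above 0 in 30 and 31 of the 34 tumors.

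Of the receptor genes, ITGB4 stood high in tumors. ITGB4 encodes the beta-4 subunit, which pairs only with alpha-6 and carries the tail that builds the plaque, and lies at chr17:73717408-73753899 on the plus strand of GRCh37. It ranged from -1.25 through a median of 2.67 to 5.61 log units in the 16 SCC13 tumors. It ran from 0.01 through 1.62 to 2.97 in the 10 CAL27 tumors, and from -0.48 through 0.74 to 1.78 in the 8 A431 tumors. Values were above 0 in 15 SCC13, 10 CAL27 and 5 A431 tumors, and value column 3 was the SCC13 tumor below it. The mean was 2.42 ± 1.68 in SCC13 tumors (SD, n = 16, limma adjusted p = 5.02e-06) and 1.59 ± 0.79 in CAL27 tumors (n = 10, adjusted p = 0.000312), both past the test. In A431 tumors it was 0.66 ± 0.79 (n = 8), which did not pass (limma adjusted p = 0.0787). By order from the lowest mean among 327 genes, ITGB4 was at 310, 307 and 302 in SCC13, CAL27 and A431 tumors.

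The gain of ITGB4 depends in size on what it is set against. Relative to the non-targeting guides its mean was 0.81 in SCC13 tumors, which did not pass (limma adjusted p = 0.113), and 0.78 in CAL27 tumors, which did (adjusted p = 0.035). In the A431 tumors it was 0.38 on that scale (adjusted p = 0.315). Over all 34 tumors, 30 values lay above the median gene and 26 above the non-targeting guides.

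ITGA6, the alpha-6 partner of ITGB4 (chr2:173292082-173371187 of GRCh37, plus strand), did not follow it. Alpha-6 also pairs with beta-1, the product of ITGB1, so its knockout removes more than 1 receptor. Values of ITGA6 ran from -2.97 through -0.81 to 5.00 in SCC13 tumors, from -2.53 through -0.01 to 0.95 in CAL27 tumors and from -1.94 through 0.30 to 1.02 in A431 tumors. The means of -0.21 ± 1.92, -0.24 ± 0.98 and -0.11 ± 1.06 (SD, n = 16, 10 and 8) did not pass (limma adjusted p = 0.744, 0.609 and 0.82). With the non-targeting guides at 0 the mean of ITGA6 was -1.83 in SCC13 and -1.05 in CAL27 tumors, both past the test (adjusted p = 0.000982 and 0.0186), and -0.38 in A431 tumors (adjusted p = 0.416). Tumors on both sides of 0 were found in each line, 15 above and 19 below in all. Within the same column, ITGB4 was above ITGA6 in 13 of 16 SCC13, 10 of 10 CAL27 and 5 of 8 A431 tumors, and in 1 of the 4 cultures. The mean difference of ITGB4 minus ITGA6 was 2.63 ± 2.08, 1.83 ± 1.29 and 0.77 ± 1.56 log units in the tumors of the 3 lines in that order (SD over tumors).

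CD151, the tetraspanin partner of laminin-binding integrins (chr11:832887-839831 of GRCh37, plus strand), was low in CAL27 and A431 tumors. It ranged from -4.35 through -1.81 to 1.24 in CAL27 tumors and from -8.22 through -1.35 to 0.30 in A431 tumors. In SCC13 tumors it ran from -3.95 through 0.70 to 2.95. It was below 0 in 6 of 10 CAL27, 7 of 8 A431 and 5 of 16 SCC13 tumors. The A431 value of -8.22, in value column 2, was the lowest of all 327 genes of that tumor, and the next lowest CD151 value was -2.54. CD151 fell by a mean of -1.40 ± 1.94 in CAL27 tumors (SD, n = 10, limma adjusted p = 0.0251) and of -2.15 ± 2.61 in A431 tumors (n = 8, adjusted p = 0.0388). It averaged 0.12 ± 1.77 in SCC13 tumors (n = 16, adjusted p = 0.858).

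Both CD151 calls were close to the threshold. Without value column 2 the A431 mean was -1.28 with a limma adjusted p = 0.0114, while leaving out column 1, 4, 5, 7 or 8 gave adjusted p-values of 0.0558 to 0.0762. The CAL27 call was lost without column 1, 3 or 4 (limma adjusted p = 0.0591 to 0.0784). With the 2 locked values left out, which were low at -4.35 and -3.78, the CAL27 mean was -0.73 (adjusted p = 0.207). In SCC13, 6 of its 16 values were locked, and relative to the non-targeting guides its mean was -1.50 (adjusted p = 0.00626).

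**Figure D2:**
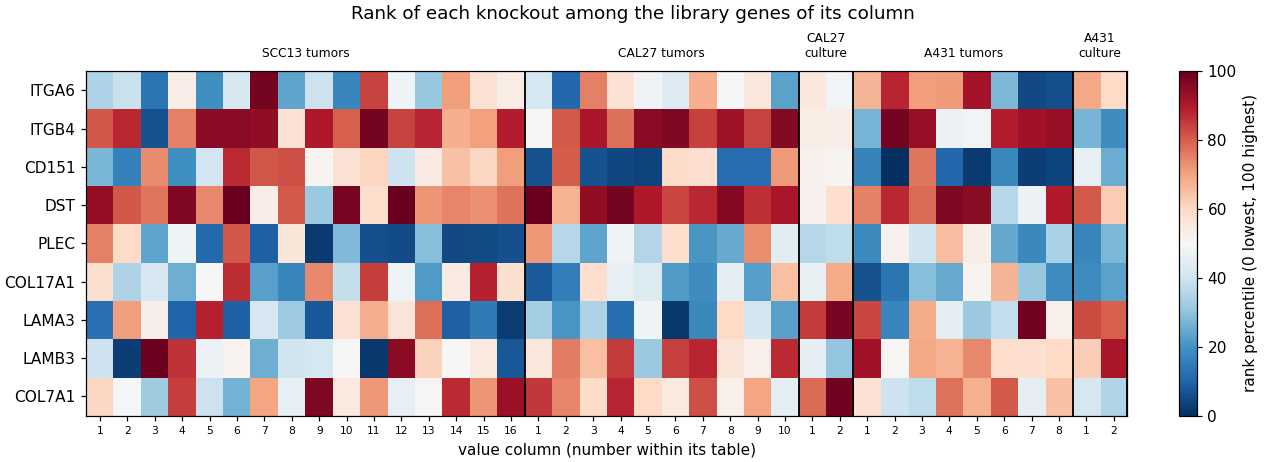
The rank percentile of each gene's knockout among the 327 genes (colour, 0 lowest and 100 highest) is drawn for each of the 38 tumors and cultures (horizontal axis, value columns by group) and each gene (vertical axis). Percentiles above 75 are seen for ITGB4 in 26 of 34 tumors and for DST in 24, and percentiles below 25 for CD151 in 15.

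The plakins DST and PLEC went in opposite directions in SCC13 tumors. DST (chr6:56322785-56819628 of GRCh37, minus strand) encodes dystonin, whose epithelial isoform is BP230, and other isoforms are made in nerve and muscle. It ran from -1.25 through 1.64 to 5.97 in SCC13 tumors, from 0.62 through 1.76 to 3.27 in CAL27 tumors and from -0.43 through 0.67 to 1.17 in A431 tumors. It was above 0 in 15 of 16, 10 of 10 and 6 of 8 tumors, and value column 9 was the SCC13 tumor below it. DST rose by a mean of 2.14 ± 1.99 in SCC13 tumors (SD, n = 16, limma adjusted p = 8.41e-05) and by 1.91 ± 0.81 in CAL27 tumors (n = 10, adjusted p = 4.84e-05). In A431 tumors it averaged 0.56 ± 0.58, which did not pass (n = 8, limma adjusted p = 0.0807) and did without column 6 (adjusted p = 0.0342). The mean of DST against the non-targeting guides was 0.52 in SCC13 tumors (adjusted p = 0.352), 1.10 in CAL27 tumors (adjusted p = 0.00952) and 0.28 in A431 tumors (adjusted p = 0.37). In CAL27 tumors only 8 of 327 genes had a higher mean than DST.

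PLEC encodes plectin, the broad linker between the beta-4 tail and keratin, which cells also use at other filament anchorages. It ran from -3.54 through -1.71 to 2.34 in SCC13 tumors, where 12 of 16 values were below 0. In CAL27 tumors it ran from -1.71 through -0.22 to 0.80, and in A431 tumors from -0.92 through -0.21 to 0.29. The mean fell to -1.39 ± 1.96 in SCC13 tumors (SD, n = 16, limma adjusted p = 0.00911). It was -0.35 ± 0.88 in CAL27 tumors (n = 10, adjusted p = 0.4) and -0.32 ± 0.46 in A431 tumors (n = 8, limma adjusted p = 0.278), and neither passed relative to the median gene. In SCC13, 6 values of PLEC were locked, all below 0 (-3.32 to -0.69), and without locked values the mean was -0.67 (adjusted p = 0.384). Against the non-targeting guides PLEC was lower in all 3 lines, at -3.01 in SCC13, -1.16 in CAL27 and -0.59 in A431 tumors (adjusted p = 3.83e-07, 0.00551 and 0.0478).

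DST stood above PLEC in the same column in 34 of 34 tumors and in 4 of 4 cultures. Since genes differ in their own level, this is a description of 2 genes and was not tested. The mean difference of DST minus PLEC was 3.54 ± 2.15 in SCC13, 2.26 ± 1.12 in CAL27 and 0.88 ± 0.29 in A431 tumors (SD over tumors), against 0.12 ± 0.03 in CAL27 and 0.52 ± 0.24 in A431 cultures (n = 2 each).

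Neither collagen passed the test in any line relative to the median gene. COL17A1 (chr10:105791044-105845638 of GRCh37, minus strand) encodes the transmembrane collagen of the hemidesmosome, BP180. It ran from -1.88 through -0.11 to 2.86 in SCC13 tumors, from -2.10 through -0.52 to 0.43 in CAL27 tumors and from -1.27 through -0.48 to 0.51 in A431 tumors. Below 0 were 8 of 16, 8 of 10 and 6 of 8 tumors. The means of 0.12 ± 1.69, -0.83 ± 1.00 and -0.48 ± 0.60 (SD, n = 16, 10 and 8) did not pass (limma adjusted p = 0.857, 0.0518 and 0.143). When set against the non-targeting guides, the mean was below 0 and passed in each line, at -1.50, -1.64 and -0.75 (adjusted p = 0.00561, 0.00122 and 0.0265). The CAL27 mean also passed without column 3 or 10 (adjusted p = 0.0325 and 0.033).

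COL7A1 (chr3:48601506-48632762 of GRCh37, minus strand) encodes the collagen of the anchoring fibrils, which lie outside the hemidesmosome. Its values ran from -2.22 through 0.78 to 5.29 in SCC13 tumors, from -0.13 through 0.49 to 1.73 in CAL27 tumors and from -0.27 through 0.21 to 0.83 in A431 tumors. Of the 34 tumors, 24 were above 0, and 22 were below the non-targeting guides. The means of 0.90 ± 1.76, 0.67 ± 0.67 and 0.18 ± 0.37 (SD, n = 16, 10 and 8) did not pass (limma adjusted p = 0.0961, 0.076 and 0.526). Without column 6, its lowest, the SCC13 mean of 1.11 passed (adjusted p = 0.0407). With the non-targeting guides at 0 the sign of the mean turned in each line, to -0.72, -0.14 and -0.09, and none passed (adjusted p = 0.175, 0.697 and 0.776).

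Laminin-332, which the cells secrete, is the ligand of the receptor. LAMA3 (chr18:21269417-21536186 of GRCh37, plus strand) encodes its alpha-3 chain, which holds the integrin-binding domains. In CAL27 tumors LAMA3 ran from -4.93 through -0.99 to 0.28, with 9 of 10 values below 0, and its mean fell to -1.26 ± 1.49 (SD, n = 10, limma adjusted p = 0.0174). In SCC13 tumors it ran from -3.81 through -0.65 to 2.31 with a mean of -0.95 ± 2.14 (n = 16, adjusted p = 0.0918). In A431 tumors it ran from -1.10 through -0.02 to 1.88 with a mean of 0.12 ± 0.88 (n = 8, limma adjusted p = 0.786). Of the SCC13 values 8 were locked, between -3.56 and 0.13, and the other 8 had a median of 0.96. With the locked values left out the SCC13 mean was 0.37 (adjusted p = 0.715). Set against the non-targeting guides LAMA3 was -2.57 in SCC13 and -2.07 in CAL27 tumors (adjusted p = 1.43e-05 and 0.00101). Array weights gave -0.84 for the CAL27 mean (adjusted p = 0.0603), and without column 13 the SCC13 mean of -1.17 passed (adjusted p = 0.0379).

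LAMB3 (chr1:209788215-209825770 of GRCh37, minus strand) encodes the beta-3 chain, which assembles with alpha-3 before secretion. In CAL27 tumors it ran from -0.40 through 0.71 to 1.93, with 9 of 10 values above 0, and its mean rose to 0.82 ± 0.82 (SD, n = 10, limma adjusted p = 0.0408). That gain is relative to the median gene, since relative to the non-targeting guides the CAL27 mean was 0.0017 (adjusted p = 0.996). The call was also lost without column 2, 4, 6, 7 or 10 (limma adjusted p = 0.0696 to 0.0951). In A431 tumors LAMB3 ran from 0.01 through 0.25 to 0.97, above 0 in 8 of 8, and the mean of 0.33 ± 0.29 did not pass (limma adjusted p = 0.206). In SCC13 tumors it had the widest range of the 9 genes, from -5.23 through -0.08 to 7.51. Of these values 3 were locked, the -5.23 among them, and the 7.51 was in column 3, where 136 genes were locked. LAMB3 averaged -0.04 ± 2.95 in SCC13 tumors (n = 16, limma adjusted p = 0.95), or -1.66 against the non-targeting guides, which passed (adjusted p = 0.0112).

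The 2 laminin chains ran against each other from tumor to tumor in CAL27. The tumor with the lowest LAMA3 value, -4.93 in column 6, had LAMB3 at 1.82, and the tumor with the lowest LAMB3 value, -0.40 in column 5, had LAMA3 at -0.03. Pearson's r between LAMA3 and LAMB3 was -0.78 over the 10 CAL27 tumors (permutation p = 0.00146, adjusted p = 0.0394) and Spearman's rho was -0.92 (permutation p = 0.00054, adjusted p = 0.0146), both two-sided. Without the 2 tumors farthest from the median of LAMA3, r was -0.93. In SCC13 tumors r was 0.04 (permutation p = 0.88), and in A431 tumors it was 0.31 (exact permutation p = 0.376). On the deposited values, without centring on the median gene, the CAL27 r was -0.52 and rho -0.81, and neither passed after adjustment (adjusted permutation p = 0.654 and 0.187). Whether the correlations differ between lines was not tested.

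**Figure D3:**
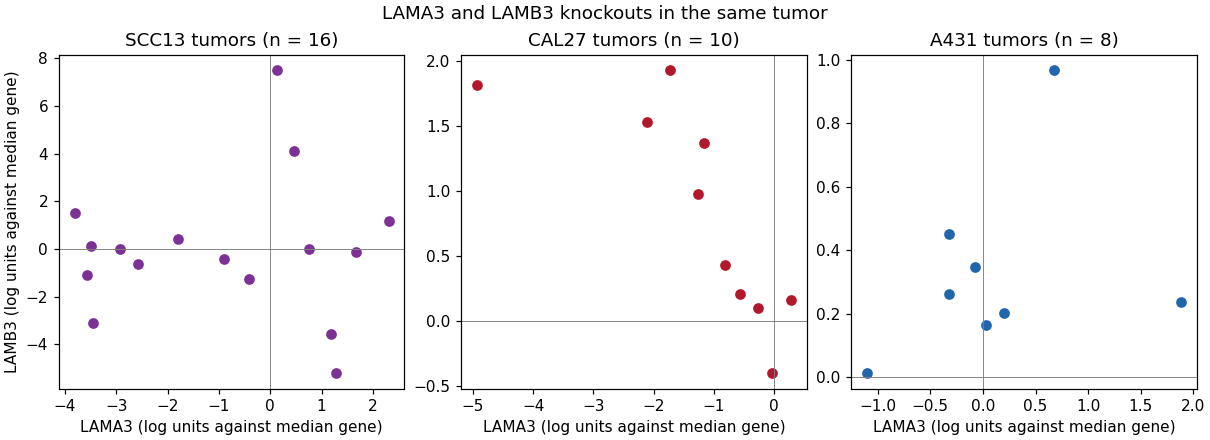
Each point is 1 tumor, with its LAMA3 value on the horizontal axis and its LAMB3 value on the vertical axis (both in log units against the median gene, with own scales per panel). In CAL27 the points run from upper left to lower right (r = -0.78), and in SCC13 and A431 r was 0.04 and 0.31.

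These were 3 of 27 tests, made for 9 pairs of gene products that bind each other or act in the same complex, in each line. No other pair passed. For ITGA6 and ITGB4, the 2 subunits of the receptor, r was 0.34 in SCC13, -0.04 in CAL27 and -0.41 in A431 tumors (adjusted permutation p = 0.735, 0.937 and 0.749). For ITGA6 and CD151 in CAL27 tumors r was -0.69 (adjusted permutation p = 0.259). The columns of 1 table have common initial cells and each pair shares the column's median, and the part of either in these correlations was not tested.

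In culture none of the 9 genes passed the test in either line. All 9 lay between -0.11 and 0.33 in CAL27 cultures and between -0.38 and 0.24 in A431 cultures by their means. Of the library, 18.7% was lower and 4.89% higher in CAL27 culture, and 11.3% was lower and 2.14% higher in A431 culture. At an unadjusted p under 0.05, 1 member passed in CAL27 culture and 3 in A431 culture, against 38.5% and 28.7% of the library. In the CAL27 cultures ITGB4 was 0.0028 and 0.0050, DST 0.0022 and 0.0307, and CD151 0.0014 and 0.0022, so that these genes sat on the median gene. In the first of these cultures CD151 and DST had the same exact value (0.0022), and in the second CD151 shared an exact value with other genes. The order among genes with the same value is not known. LAMA3 was 0.22 and 0.43 and COL7A1 0.16 and 0.46 in the CAL27 cultures, the highest members there, and with exactly shared values left out both passed (limma adjusted p = 0.0223 and 0.0293). Neither gene held a shared value there itself, so only values of other genes were left out. Against the non-targeting guides their means were below 0, at -0.16 and -0.17, and did not pass (limma adjusted p = 0.139 and 0.114). In the A431 cultures ITGB4 was -0.46 and -0.23, COL17A1 -0.45 and -0.32, and PLEC -0.46 and -0.27. LAMA3 was 0.24 in both A431 cultures, and LAMB3 was 0.06 and 0.34. Against the non-targeting guides, 7 members were lower in CAL27 culture and 5 in A431 culture, where 293 and 136 of the 327 genes were (89.6% and 41.6%). None of the members was higher on that scale, where 0% and 0.306% of the library was.

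Tumors and culture of the same line were compared directly to ask which of these knockouts act differently in the animal. With 1 spread for both settings, 0 of the 9 genes and 0% of the library in either direction passed in CAL27 or in A431 (limma). Unadjusted p-values under 0.05 were found for 30 genes in CAL27 (9.17%), among them ITGB4 and DST, and for 20 genes in A431 (6.12%), none of them a member. DST was 1.90 log units higher in CAL27 tumors than in CAL27 culture (SE 0.70, limma adjusted p = 0.31) and ITGB4 was 1.59 higher (SE 0.70, adjusted p = 0.475). For both, all 10 tumors were above both cultures, which lay near the median gene (ITGB4 0.0028 and 0.0050, DST 0.0022 and 0.0307). LAMA3 differed by -1.58 (SE 0.96, adjusted p = 0.726), and all 10 tumors were below the culture mean of 0.33. CD151 differed by -1.40 in CAL27 and by -1.99 in A431 (SE 1.15 and 1.46, adjusted p = 0.75 and 0.889), and LAMB3 by 0.92 in CAL27 (SE 0.70, adjusted p = 0.75). ITGB4 was 1.00 higher in A431 tumors than in A431 culture (SE 0.54, adjusted p = 0.811), with 7 of 8 tumors above both cultures. How common such separations of tumors from cultures were over the library was not counted, so nothing is read from them.

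The tumor values spread far more than the culture values. With an own spread for each setting, DST, ITGB4 and LAMB3 were higher and LAMA3 and CD151 lower in CAL27 tumors than in CAL27 culture (limma's moderated variance taken per group, adjusted p = 0.000117, 0.000678, 0.0311, 0.0069 and 0.032). In A431, ITGB4 was then higher (adjusted p = 0.0276). That fit called 2 members lower and 3 higher in CAL27, against 15% and 17.7% of the library, and 0 and 1 in A431, against 5.5% and 6.73%. The 2 cultures per line limit what either fit can show.

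**Figure D4:**
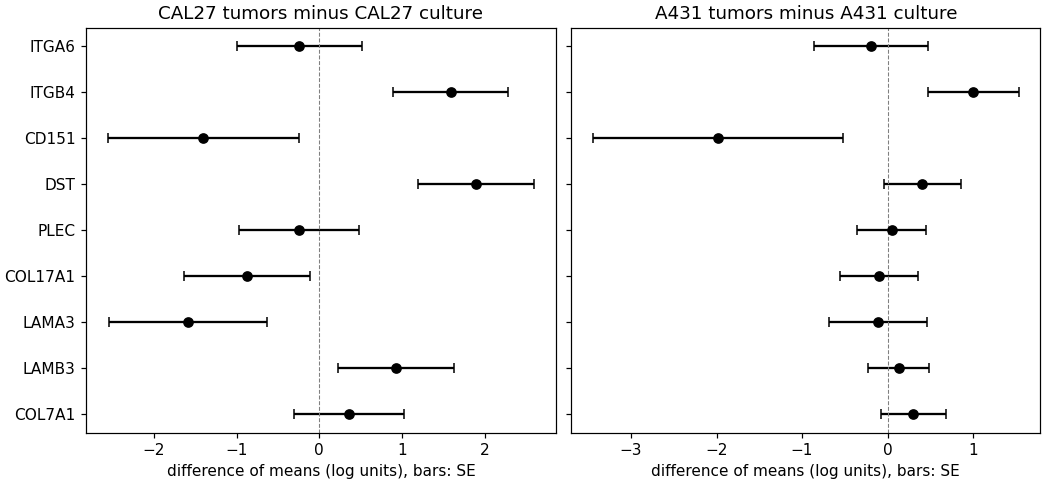
Points are the difference of means, tumors minus culture, in log units (horizontal axis, own scale per panel) for each gene (vertical axis), and bars are the SE of the fit with 1 spread. In CAL27, DST at 1.90 and ITGB4 at 1.59 lie highest and LAMA3 at -1.58 lowest, and in A431 CD151 at -1.99 has the longest bar.

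Between the lines, CD151 was the 1 member that passed a test over the tumors of all 3 lines (limma moderated F test, adjusted p = 0.0337), where 26.6% of the library passed. ITGB4 and DST did not pass that test (adjusted p = 0.0559 and 0.124). The call changed with the scale and with single tumors. With the non-targeting guides at 0, CD151 did not pass (adjusted p = 0.536) while PLEC and LAMA3 did (adjusted p = 0.00434 and 0.0238), among 42.2% of the library. Relative to the median gene, CD151 did not pass without A431 column 2 or 5 or SCC13 column 6, 7 or 16 (adjusted p = 0.0533 to 0.1), and ITGB4 passed without A431 column 2 or SCC13 column 3, 4, 8, 14 or 15 (adjusted p = 0.0131 to 0.0481). CD151 was 2.26 log units higher in SCC13 than in A431 tumors (SE 0.75, adjusted p = 0.0243) and ITGB4 was 1.77 higher (SE 0.60, adjusted p = 0.0272). In this contrast 0 members were lower and 2 higher, against 10.7% and 10.4% of the library. Both differences changed with the scale or with single tumors. ITGB4 in SCC13 minus A431 became 0.13 after each column was divided by its median absolute deviation (adjusted p = 0.882), 0.06 as normal scores of ranks (adjusted p = 0.928) and 0.42 with the non-targeting guides at 0 (adjusted p = 0.553). Its call was also lost without A431 column 1, 4 or 5 (adjusted p = 0.0586 to 0.0710). The CD151 difference was 1.40 without A431 column 2 (adjusted p = 0.179) and 0.92 when set against the non-targeting guides (adjusted p = 0.361). DST, at 1.58 (SE 0.63, adjusted p = 0.0663), passed without SCC13 column 7, 9 or 11 (adjusted p = 0.0279 to 0.0491). SCC13 tumors grew in another mouse strain than the CAL27 and A431 tumors. Line and strain therefore cannot be told apart in the contrasts with SCC13 or in the F test.

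As rank percentiles within a column, ITGB4 had a median of 85.8 in SCC13 tumors, 87.5 in CAL27 tumors and 90.7 in A431 tumors, and DST had 77.1, 90.4 and 82.9. In culture the percentiles of ITGB4 were 53.4 and 53.7 in CAL27 and 18.8 and 26.8 in A431. CD151 had a median percentile of 58.7 in SCC13, 11.8 in CAL27 and 7.34 in A431 tumors. SCC13 minus CAL27 tumors called none of the 9 genes, where 7.95% of the library was lower and 9.79% higher, and CD151 came closest at 1.52 (SE 0.70, limma adjusted p = 0.116). It was the 1 member with an unadjusted p under 0.05 in that contrast, as 32.1% of the library had. CAL27 minus A431 tumors called none either, against 3.06% lower and 0.306% higher, with DST at 1.35 (SE 0.69, adjusted p = 0.299) and LAMA3 at -1.38 (SE 0.75, adjusted p = 0.331), and 0 members had an unadjusted p under 0.05, against 17.7% of the library. That fit takes 1 spread from the tumors of all 3 lines, and the SD of DST was 1.99 in SCC13, 0.81 in CAL27 and 0.58 in A431 tumors. With an own spread per line, DST was higher and LAMA3 lower in CAL27 than in A431 tumors (limma's moderated variance per line, adjusted p = 0.00817 and 0.0391). The library share of that fit is not given here, so absence of a difference is not read from the contrast. Between CAL27 and A431 cultures no member passed, with 2.75% and 0.306% of the library lower and higher, and 3 members had an unadjusted p under 0.05, against 22.6% of the library. All contrasts between tables assume 1 log base and 1 way of combining guides.

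The 9 genes also varied differently from each other. Over the 38 columns the highest Spearman rho between the rank percentiles of 2 members was 0.49, for DST and PLEC, and the lowest was -0.36, for LAMA3 and COL7A1. The genes outside the group whose ranks were most like those of ITGB4 were CAV1 (rho = 0.60), which encodes the membrane protein caveolin-1, and CALM3 (0.50), a calmodulin gene. For CD151 they were FERMT1 (0.58) and TP63 (0.52), and for DST they were SBSN (0.54) and IRX3 (0.54). For LAMB3 they were GPNMB (0.56) and NDRG1 (0.45), and for LAMA3 KRT6C (0.47) and CXCL14 (0.46). ITGA6 was most like ELK3 (0.47) and F3 (0.41), COL17A1 like REST (0.49) and CALD1 (0.43), PLEC like CTSC (0.49) and TK1 (0.46), and COL7A1 like SOX4 (0.45) and CA2 (0.44). Initial cells are common to the columns of 1 table, and these correlations are given as descriptions.

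Other genes of epithelial adhesion were counted by lists. Their values are relative to the median gene and are not given here against the non-targeting guides. A rise of such a gene therefore need not be a gain over those guides. Of 7 other integrin subunits and integrin activators in the library, 3 were lower and 2 higher in SCC13 tumors, 2 and 2 in CAL27 tumors and 3 and 2 in A431 tumors, with none in culture. ITGB1, the beta-1 subunit that alpha-6 can use instead of beta-4, fell to -2.73 ± 1.52 in SCC13, -3.67 ± 1.83 in CAL27 and -2.26 ± 0.83 in A431 tumors (SD, n = 16, 10 and 8). FERMT1, the integrin activator kindlin-1, fell to -1.88 ± 1.98, -4.14 ± 1.24 and -1.99 ± 0.74. CAV1 rose to 1.81 ± 1.40, 1.73 ± 1.08 and 0.75 ± 0.70, and FHL2, a LIM-domain protein that binds integrin tails, to 2.29 ± 1.89, 1.70 ± 0.82 and 0.59 ± 0.46. The means of ITGB1 and ITGB4 had opposite signs in the tumors of each line. In the same 16, 10 and 8 tumors, the median over the 7 genes was 0.37, -0.60 and -0.36.

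Of 8 keratins and basal cell genes, 1 was lower and 3 higher in SCC13 tumors, 3 and 2 in CAL27 tumors and 1 and 1 in A431 tumors. TP63, the transcription factor of basal epithelium, fell in all 3, to -1.89 ± 1.32, -2.55 ± 1.50 and -2.79 ± 2.02. It also fell in CAL27 and A431 culture, to -1.02 and -1.30. KRT5, a basal keratin of the filaments that plectin and BP230 hold, rose to 1.21 ± 1.42 in SCC13 and 1.16 ± 0.97 in CAL27 tumors, and it was 0.44 ± 0.52 in A431 tumors, which did not pass (limma adjusted p = 0.154). In culture KRT5 rose relative to the median gene, to 0.46 in CAL27 and 0.55 in A431 (limma adjusted p = 0.0381 and 0.043). Against the non-targeting guides the median gene itself lay at -0.47 and -0.49 in the CAL27 cultures. In the A431 cultures it lay at -0.37 and -0.36. KRT6A rose to 2.77 ± 2.04 in SCC13 and 1.19 ± 0.78 in CAL27 tumors. KRT6B rose to 1.28 ± 2.17 in SCC13 and 0.70 ± 0.66 in A431 tumors.

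Of 8 desmosome genes, whose products join cells to each other, none was lower in the tumors of any line, and 2, 1 and 2 were higher in SCC13, CAL27 and A431. DSG1, a desmosomal cadherin, rose to 1.62 ± 2.08 in SCC13 and 1.13 ± 0.70 in CAL27 tumors. Of 3 other basement membrane and matrix genes none passed in any tumor or culture set (limma), and 1 of them had an unadjusted p under 0.05, in A431 tumors. The lists were counted beside the library shares given above, and nothing is read from them about the hemidesmosome genes as a group.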

How the data were processed

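Guide RNA abundance was measured by sequencing in genomic DNA. Bowtie2 was among the tools, per the submitters' processing notes. No source used here gives its version, the genome build or the guide sequences. The authors deposited 5 tables without a header, of log fold changes per gene (another unit, with the log base not stated), with the non-targeting row at 0 in each of the 38 columns. Columns carry no replicate numbers and are called value columns. Since no read counts were used, depth is unknown and gives no interval. The tables do not write the direction, and since MCM5, a replication helicase gene, stood at -2.59 in SCC13, -3.59 in CAL27 and -2.22 in A431 tumors, negative values are read as loss.

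Each column was centred on its median over 327 genes, without the non-targeting row. limma 3.58.1 in R 4.3.3 (lmFit, eBayes) tested each table against 0, tumors against culture, and lines against each other. Pairs were tested with exact permutations or 100000 resamples (Python 3.11.15), and figures were drawn with matplotlib 3.10.9. The fits were tested on simulated data. Locked values are those of genes, at least 4, that share the most frequent exact difference between 2 columns, to 6 decimals. Named genes are the 9 members, ITGB1, FERMT1, list genes past the threshold in the same direction in at least 2 of 3 tumor fits, and the 2 genes most like each member by rank. The members and lists were chosen with earlier results of these data known. Gene positions are from GENCODE v44lift37 and are not those of the guides. PLEC has no position here.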

Additional observations from a re-analysis of the deposited data

Results flagged for a closer look

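In 18 groups tested (9 genes in CAL27 and A431 tumors), 3 held a value far from the others, and chance gives about 1 in 20. CD151 in A431 tumors had -8.22 in value column 2, with the next at -2.54. LAMA3 in CAL27 tumors had -4.93 in value column 6, with the next at -2.12. LAMB3 in A431 tumors had 0.97 in value column 1, with the next at 0.45. The 16 SCC13 tumors were too many for this check and the cultures too few. In that contrast of SCC13 minus A431 tumors, line and mouse strain cannot be told apart. By limma the change differed in it for 2 genes, ITGB4 by 1.77 (adjusted p = 0.0272) and CD151 by 2.26 (adjusted p = 0.0243). The A431 tumor at -8.22 is in the second of these, which was 1.40 without it (adjusted p = 0.179).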

How the results depend on the processing

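Of 452 counts of members past the threshold under other settings, 396 stayed within 1.5 times. Of 1877 values of single members, 1691 kept direction and side of the threshold. Counts of 0 that stayed 0 are among the 396, and many settings left out only 1 column, so these tallies are no measure of stability. ITGB4 and DST passed in CAL27 tumors in all 18 alternatives, and in SCC13 tumors in 24 of 25. Of these alternatives, 10 in CAL27 and 16 in SCC13 left out only 1 column. In SCC13 both genes failed only with the non-targeting guides in place of the median gene. Their limma adjusted p was then 0.113 for ITGB4 and 0.352 for DST, so the SCC13 gain of both depends on the reference. Relative to the non-targeting guides, members lower numbered 6 in SCC13, 5 in CAL27 and 3 in A431 tumors, 7 in CAL27 and 5 in A431 culture, and 0 were higher in SCC13 tumors. Genes lower over the library were then 293 in CAL27 and 136 in A431 culture, against 61 and 37. SCC13 minus A431 gave 2 lower and 0 higher, where 121 and 5 of the 327 genes were. SCC13 minus CAL27 gave 1 lower, where 68 genes were. The F test gave 2 (PLEC and LAMA3, not CD151), where 138 genes passed, and the pairs gave 0. Of 45 means against the initial cells, 17 changed sign there. They passed the test after the change for CD151 (-1.50) and COL17A1 (-1.50) in SCC13 tumors, and in CAL27 culture for ITGA6 (-0.48), ITGB4 (-0.48), CD151 (-0.48), COL17A1 (-0.44) and DST (-0.47). The other 10 did not pass on either scale, namely COL7A1 in all 3 tumor sets, LAMA3 in A431 tumors, LAMA3 and COL7A1 in CAL27 culture, and ITGA6, DST, LAMA3 and LAMB3 in A431 culture. With locked values left out, which mostly removes members' values below 0, 0 were lower in SCC13 and 1 in CAL27 tumors. The F test then gave 2 (ITGB4 and CD151), where 83 of 322 genes passed. The exact sign-flip test gave 0 lower in A431 and 1 in CAL27 tumors. With 8 tumors its smallest possible p passes the adjustment only if many genes reach it, so nothing is read from the A431 count. Array weights gave 0 lower in A431 and 1 in CAL27 tumors, with 1 higher in A431. Members higher in A431 tumors were also 1 with columns scaled by their median absolute deviation, 2 by ranks and 1 with a trended robust fit. In CAL27 culture 2 were higher without shared values, 1 by ranks and 2 with the trended fit. CAL27 tumors minus culture gave 1 lower by scaling, 1 by ranks, and 2 lower and 3 higher with own spreads, which also gave 1 higher in A431 tumors minus culture and 1 lower and 1 higher in CAL27 minus A431 tumors. SCC13 minus A431 gave 1 higher by scaling and 1 by ranks. Leaving out 1 column at a time gave 1 to 2 lower in SCC13 tumors, 1 to 3 in CAL27 tumors, 0 to 1 lower and 0 to 1 higher in A431 tumors, 1 to 3 higher in SCC13 minus A431 and 0 to 2 in the F test. Leaving out SCC13 columns 3 and 7, which held the most locked values, was chosen after seeing the data and moved no count by over 1.5 times, but in the F test ITGB4 then passed (adjusted p = 0.018) and CD151 did not (adjusted p = 0.076). Library shares of most of these other settings are not given here, so the member counts only describe how calls moved. The causes were not tested. No paired analysis was possible because the value columns carry no replicate numbers.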
